A study of Danio rerio with 12 samples.

Results

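The lens genes of the zebrafish were the 65 rows, of 31465 gene rows in the deposited count table, whose gene symbol begins with cryaa, cryab, cryba, crybb, crygm, crygn, crygs, lim2, bfsp1 or bfsp2, or is mipa or mipb. They comprised 3 alpha, 7 beta A, 6 beta B, 21 gamma M2d, 14 other gamma M, 2 gamma N and 4 gamma S crystallin genes, 5 lim2 genes, 2 mip genes and bfsp2. Total RNA of embryos, whose tissue label reads embryonic cells, was sequenced in 12 libraries, 3 in each of 4 groups, to compare the transcriptomes of mycn mutants and wild type. Embryos were raised in Danieau buffer without further treatment in the labels, and mycn codes for a Myc-family transcription factor. The groups were Mycn mutant embryos at 72 hours post fertilization (hpf), wild-type embryos of the strain AB at 72 hpf, Mycn mutant embryos at 48 hpf and AB wild-type embryos at 48 hpf. The allele, the genetic background of the mutant line, whether its embryos were homozygous, and the number of embryos or clutches behind a library were not stated in the labels, so p-values measure only the spread between these libraries, which may be technical.

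The vertebrate lens is built of fibre cells that elongate, lose their organelles and fill with crystallins, the soluble proteins that give the lens its refractive power. Alpha crystallins are small heat shock proteins that act as chaperones, whereas beta and gamma crystallins share a structural fold, and the methionine-rich gamma M crystallins are characteristic of the dense, spherical lenses of fish. The other genes encode parts of the fibre cell itself, namely the water channel aquaporin 0 (mipa and mipb), the membrane protein MP20 (lim2) and the beaded filament protein phakinin (bfsp2).

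Library totals lay between 14793715 and 19732340 counts, and values below are counts normalised to library size (CPM) after scaling by the trimmed mean of M values, TMM. The targeted gene itself had 158, 158 and 141 CPM in mutant-labelled libraries and 76.3, 75.5 and 79.8 CPM in wild-type libraries at 72 hpf, and 203, 212 and 251 CPM against 71.2, 90.1 and 60.7 CPM at 48 hpf. Its RNA was therefore higher in every library labelled mutant (log2 fold change 0.98 ± 0.13 at 72 hpf and 1.59 ± 0.13 at 48 hpf, mean ± SE; adjusted p = 0.00144 and 5.45e-06), and all directions below rest on the labels. RNA was taken in bulk, so fewer lens cells and less RNA per lens cell cannot be told apart. The 3 wild-type libraries at 48 hpf stood apart from each other in lens genes, with a median coefficient of variation of 48.4%, against 22.7% in mutant libraries of that age, and values without one of them are given beside the results that this changed most. A change was called at an adjusted p under 0.05, from the quasi-likelihood test of edgeR, adjusted after Benjamini and Hochberg over the 21068 genes that passed the filter on low counts; 53 of the 65 lens genes passed it.

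Many of the lens genes lie close together, and the rest lie singly. Matched by identifier or symbol to the RefSeq annotation of assembly GRCz12tu, all 65 were found, 44 of them in 6 runs of neighbouring genes, counting genes as neighbours where at most 1 other protein-coding gene lay between them. The longest run held 34 rows, with all 21 crygm2d rows, crygmxl1, crygm3, crygm5 and other gamma M genes and the gamma S genes crygs3 and crygs4. The gamma M genes crygmx and crygmxl2 lay elsewhere as a run of their own. The other 4 runs each held a beta A and a beta B gene, among them crybb1 with cryba4 and crybb1l2 with cryba1l2. Symbols of the crygm2d genes differ only in a final number, and 2 rows carry the symbol crygm2d17 and matched the same RefSeq gene. How reads that match several genes were counted was not stated, and the identity between the crygm2d sequences was not computed. Values of single crygm2d genes are therefore uncertain.

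All 65 lens genes together took 3.18%, 3.30% and 2.94% of the counts of mutant libraries and 3.08%, 3.14% and 3.02% of those of wild-type libraries at 72 hpf. At 48 hpf they took 1.09%, 1.26% and 0.830% in mutant libraries and 0.477%, 0.764% and 1.16% in wild-type libraries. The genotypes overlapped at both ages, and each library at 72 hpf was above each at 48 hpf. The mean share was 2.96 times as high at 72 as at 48 hpf in mutant and 3.85 times in wild-type embryos. By family, leaving out the gamma S genes, none of which passed the filter, this ratio was lowest for gamma M2d crystallins, at 2.36 in mutant and 2.81 in wild-type embryos. It was 3.79 and 5.94 for beta crystallins, 7.66 and 11.3 for gamma N crystallins and 8.71 and 10.4 for the mip genes. Crystallin genes supplied nearly all of it, 97.0% ± 0.237 of lens counts in mutant and 97.1% ± 0.0889 in wild-type libraries at 72 hpf (SD, n = 3 each).

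**Figure D1:**
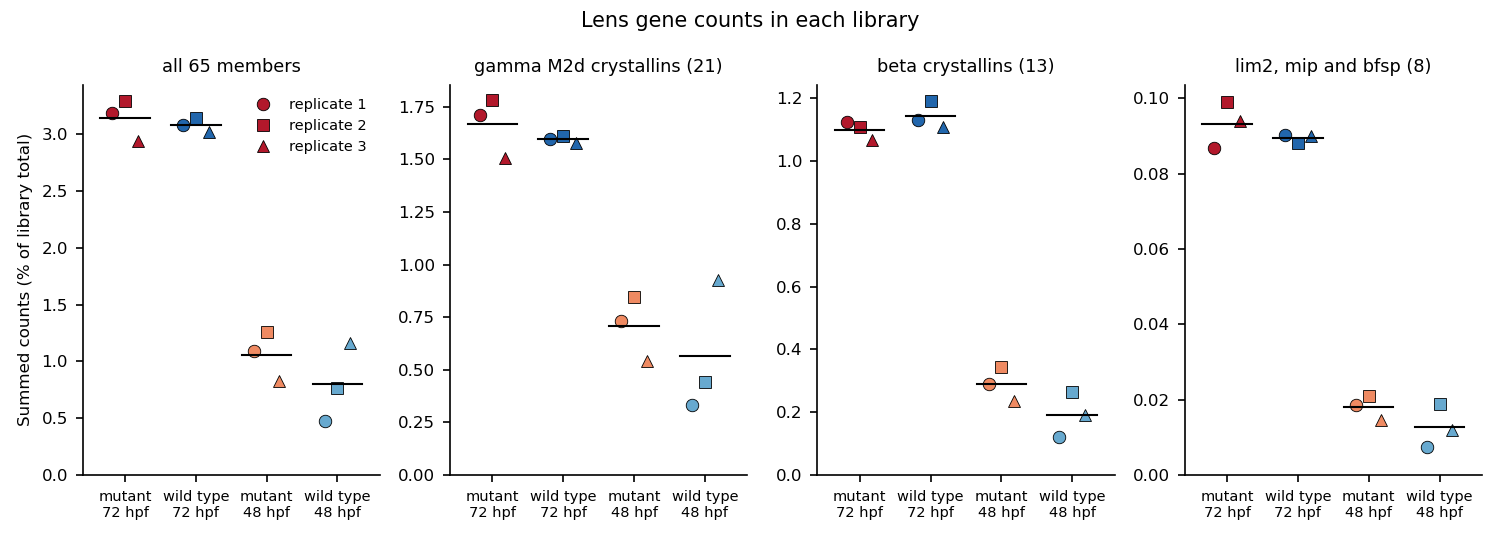
Summed counts as a percentage of each library's total for all 65 lens genes, the 21 gamma M2d crystallins, the 13 beta crystallins and the 8 lim2, mip and bfsp genes; symbols are replicates and bars are means of 3 libraries. Mutant and wild-type libraries overlap at both ages, and wild-type replicate 3 at 48 hpf is the highest of its group for gamma M2d crystallins but not for beta crystallins.

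Most lens genes rose between the ages in both genotypes. Of the 53 tested lens genes, 43 rose and 0 fell in mutant embryos and 44 rose and 1 fell in wild-type embryos, with 43 rising in both. Of all tested genes, 35.7% rose and 34.4% fell in mutant and 35.4% rose and 35.4% fell in wild-type embryos. The median log2 fold change of the lens genes was 1.60 in mutant and 2.08 in wild-type embryos, beside -0.00370 and -0.02 over all tested genes. These counts and medians are descriptions, since a gene silent at 48 hpf passed the filter only through the libraries at 72 hpf: 47 of the 53 passed it in the 48 hpf libraries alone. Without wild-type replicate 3 at 48 hpf, 50 rose and 0 fell in wild-type embryos, beside 68.5% of all genes called in either direction. Without replicate 1 or 2, 42 rose and 1 fell in each fit, beside 67% and 69.2% of all genes called. By group, 7 of 7 beta A, 4 of 5 beta B, 2 of 2 gamma N, 4 of 5 lim2, 2 of 2 mip genes and bfsp2 rose in each genotype.

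Among the alpha crystallins, cryaa, the lens chaperone, had 51.1, 56.5 and 50.4 CPM in mutant and 60.6, 55.3 and 49.9 CPM in wild-type embryos at 72 hpf, against 14.2, 17.3 and 12.6 CPM and 8.74, 15.9 and 6.83 CPM at 48 hpf. No library at 48 hpf reached the lowest at 72 hpf, and the rise on the log2 scale was 1.84 ± 0.21 in mutant and 2.40 ± 0.21 in wild-type embryos (adjusted p = 7.54e-07 and 4.36e-08). Its paralog cryabb, one of the zebrafish alpha B crystallins, stayed at or below 1.73 CPM in every library and did not pass the test between ages (adjusted p = 0.221 and 0.137). The other alpha B gene, cryaba, had 2 counts in all.

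Beta crystallins are oligomeric structural proteins of the fibre cell. In the beta B group crybb1l2 had the highest mean CPM, with 1988, 1909.6 and 1945 CPM in mutant and 2021, 2064 and 1876 CPM in wild-type embryos at 72 hpf, against 909.7, 1058 and 757 CPM and 427, 864 and 792 CPM at 48 hpf. In the beta A group this was cryba1l1, with 1419, 1491 and 1216 CPM and 1422, 1468 and 1285 CPM at 72 hpf, against 405, 494 and 288 CPM and 178, 362 and 239 CPM at 48 hpf. The first wild-type library at 48 hpf was the lowest of all 12 for both. Log2 rises of crybb1l2 were 1.10 ± 0.19 in mutant and 1.52 ± 0.19 in wild-type embryos, and those of cryba1l1 1.80 ± 0.22 and 2.42 ± 0.22 (adjusted p of at most 8.87e-05).

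Of the neighbouring pair crybb1 and cryba4, the mutant libraries had 1164, 895 and 935 CPM and the wild-type libraries 1061, 1242 and 1028 CPM of crybb1 at 72 hpf, and 1148, 1315 and 1188 CPM and 1279.6, 1265 and 1119 CPM of cryba4. At 48 hpf cryba4 had 321, 402 and 279 CPM in mutant and 146, 319 and 175 CPM in wild-type embryos, with no library near those at 72 hpf. The pair rose by a log2 1.46 and 1.86 in mutant and by 2.24 and 2.52 in wild-type embryos. Of other pairs, cryba1l2 rose by 1.34 and its neighbour crybb1l2 by 1.52 in wild-type embryos, and cryba1l1 by 2.42 and its neighbour crybb1l1 by 2.81. The only beta gene that did not pass in either genotype was crybb2, chosen after its values were seen, which stayed at or below 0.934 CPM; without wild-type replicate 3 at 48 hpf its wild-type log2 change was 1.70 and passed (adjusted p = 0.0341). The gene crybb3, with 48 counts in all, was not tested.

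Gamma N crystallins, a small group of structural lens proteins with features of both beta and gamma crystallins, rose in both genotypes. For crygn2 the libraries held 1311, 1588 and 1387 CPM in mutant and 1299, 1199 and 1208 CPM in wild-type embryos at 72 hpf, against 238, 279.6 and 187 CPM and 96.6, 217 and 130.0 CPM at 48 hpf. These are log2 changes of 2.60 ± 0.23 in mutant and 3.06 ± 0.23 in wild-type embryos (adjusted p = 3.36e-08 and 5.75e-09). The second gene, crygn1, had 4.18, 5.004 and 4.78 CPM in mutant and 6.001, 4.76 and 4.52 CPM in wild-type embryos at 72 hpf, against 0.569, 0.287 and 0.243 CPM and 1.16, 0.390 and 0.0589 CPM at 48 hpf, and rose by a log2 3.63 ± 0.48 and 3.24 ± 0.44, the second 4.51 without wild-type replicate 1 at 48 hpf. These rises rest on few counts at 48 hpf, 9, 4 and 4 in mutant and 19, 6 and 1 in wild-type libraries.

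Gamma M crystallins differed widely among themselves. The gene crygmx had 329, 306 and 301 CPM in mutant and 307, 283 and 284 CPM in wild-type embryos at 72 hpf, against 25.9, 31.1 and 19.6 CPM and 10.2, 20.4 and 13.5 CPM at 48 hpf. Its linear rise was 12.3-fold in mutant and 19.9-fold in wild-type embryos (adjusted p = 1.69e-10 and 3.46e-11). At the other end crygmxl1 had 4.13, 4.23 and 2.59 CPM in mutant and 4.29, 4.53 and 4.73 CPM in wild-type embryos at 72 hpf, against 4.93, 7.40 and 2.37 CPM and 4.40, 5.98 and 15.2 CPM at 48 hpf. It was the 1 lens gene called lower at 72 hpf in wild type (log2 fold change -0.92 ± 0.40, adjusted p = 0.0478). The call was near the threshold and held in 5 of 19 alternative fits; it was lost on leaving out any library at 72 hpf, mutant replicate 1 at 48 hpf or wild-type replicate 3 at 48 hpf. Without the last, which was the highest of the 12 libraries, the change was -0.19 (adjusted p = 0.619).

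A few gamma M genes were all but silent at 48 hpf. The largest fitted fold in wild type was that of crygm3, which had 35 counts over the 3 mutant libraries at 72 hpf against 1 at 48 hpf, and 49 against 1 in wild type. As ratios these are 29.0 (95% exact counting interval 4.87 to 1178) and 42.4 (7.26 to 1709), which cover counting error only. The gene crygm2c, named here after its values were seen, had 66 counts at 72 hpf against 2 at 48 hpf in mutant libraries, a ratio of 27.3 (7.28 to 230.5), and 86 against 3 in wild-type libraries, a ratio of 24.8 (8.21 to 122.7). The gene crygm2e had 12, 18 and 8 counts at 72 hpf against 1, 1 and 3 at 48 hpf in mutant libraries, a fitted 5.94-fold rise, and 56 against 2 in wild type, a ratio of 24.2 (6.40 to 205.0); the difference between genotypes did not pass the test (adjusted p = 0.708). All wild-type counts of crygm2c and crygm2e at 48 hpf came from replicate 3. Outside the test, crygm2b had 26 counts at 72 hpf and 0 at 48 hpf in mutant libraries. Against a floor of 3 counts over the group this is a ratio of 7.18, which leaves out counting error at 72 hpf. In wild type crygm2b had 26 against 2, a ratio of 11.3 (2.82 to 97.8). The remaining 11 untested genes had at most 48 counts each over all libraries; crygm1 and crygm6 had 0, and the 4 gamma S genes, which encode the gamma crystallins of the lens cortex in mammals, had 7 to 17 counts each.

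The gamma M2d genes differed in their change between ages. Of the 21 rows, 15 rose in mutant and 16 in wild-type embryos, beside 35.7% and 35.4% of all tested genes. Log2 fold changes of the 21 rows ran between -0.11 and 4.62 in mutant and between -0.02 and 3.61 in wild type. In wild type the number that rose depended on the libraries at 48 hpf. Without replicate 1 or replicate 2, 14 of 21 rose in each fit, beside 67% and 69.2% of all genes called in either direction. Without replicate 3, 21 of 21 rose, at log2 fold changes between 0.55 and 4.61. That fit called 68.5% of all genes in either direction. Highest in mean CPM, crygm2d8 did not pass the test in either genotype: it had 938, 1061 and 904 CPM in mutant and 998, 976 and 865 CPM in wild-type embryos at 72 hpf, against 1092, 1243 and 794 CPM and 633, 663 and 1586 CPM at 48 hpf, and the ages overlapped. Without wild-type replicate 3 at 48 hpf its wild-type log2 fold change was 0.55, against -0.02 with it (adjusted p = 0.00446). By contrast crygm2d7 had 752, 898 and 705 CPM and 671, 679.9 and 589.9 CPM at 72 hpf, against 275, 333 and 200.02 CPM and 99.8, 138 and 236 CPM at 48 hpf, with no overlap (log2 fold change 1.54 ± 0.24 in mutant and 2.03 ± 0.24 in wild type). The widest range was that of crygm2d11, picked after its values were seen, with 466, 483 and 388 CPM in mutant and 422, 443 and 403 CPM in wild-type embryos at 72 hpf, against 24.7, 19.4 and 10.3 CPM and 24.4, 10.3 and 69.1 CPM at 48 hpf. It rose by a log2 4.62 in mutant and 3.61 in wild type, against 1.23 and 1.80 for crygm2d13, the next lens gene in the run; without wild-type replicate 3 at 48 hpf the wild-type rises were 4.61 and 2.08. Of the 5 crygm2d genes at the end of the series next to crygm2f, crygm2d3, crygm2d21, crygm2d10 and crygm2d1 had log2 fold changes of at most 0.61 in either genotype, and crygm2d2 rose by 1.29 in mutant and 1.34 in wild type. Without wild-type replicate 3 at 48 hpf the wild-type values of the first 4 were 1.02, 1.12, 0.71 and 0.84, each of which passed, and that of crygm2d2 was 1.97. With all libraries only crygm2d3 of these 4 passed in wild type. The gamma M2d share of lens counts was lower in every library at 72 hpf than at 48 hpf, 53.1% ± 1.52 in mutant and 51.8% ± 0.431 in wild-type libraries at 72 hpf, against 66.6% ± 1.02 and 69.1% ± 11.03 at 48 hpf (SD, n = 3 each).

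Fibre membrane and filament genes rose as well. The aquaporin gene mipb had 193, 195 and 208 CPM in mutant and 195, 193 and 202 CPM in wild-type embryos at 72 hpf, against 26.4, 27.4 and 16.4 CPM and 10.2, 36.4 and 17.4 CPM at 48 hpf. The ages were wide apart, and mipb rose by a log2 3.09 ± 0.30 in mutant and 3.21 ± 0.31 in wild type (adjusted p = 1.60e-07 and 1.02e-07), the wild-type value being 3.83 without wild-type replicate 2 at 48 hpf. Its paralog mipa had 150.04, 167 and 157 CPM and 146, 148 and 143 CPM at 72 hpf, against 28.7, 33.5 and 21.8 CPM and 13.4, 26.8 and 29.5 CPM at 48 hpf, log2 rises of 2.497 ± 0.21 and 2.65 ± 0.21. For bfsp2, the phakinin gene, these values were 192, 215 and 188 CPM and 181, 169 and 176 CPM at 72 hpf, against 51.0, 63.2 and 41.1 CPM and 22.1, 49.4 and 31.8 CPM at 48 hpf, log2 rises of 1.94 ± 0.21 and 2.35 ± 0.21. No library at 48 hpf came near those at 72 hpf in either gene. Among lim2 genes, whose mammalian relative encodes a protein of fibre cell junctions, lim2.4 had 140.3, 182 and 159 CPM and 166, 157 and 147 CPM at 72 hpf, against 55.4, 61.9 and 42.4 CPM and 24.5, 61.8 and 35.6 CPM at 48 hpf, and lim2.2 was near 1 CPM throughout, with adjusted p = 0.804 in mutant and 0.726 in wild type.

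**Figure D2:**
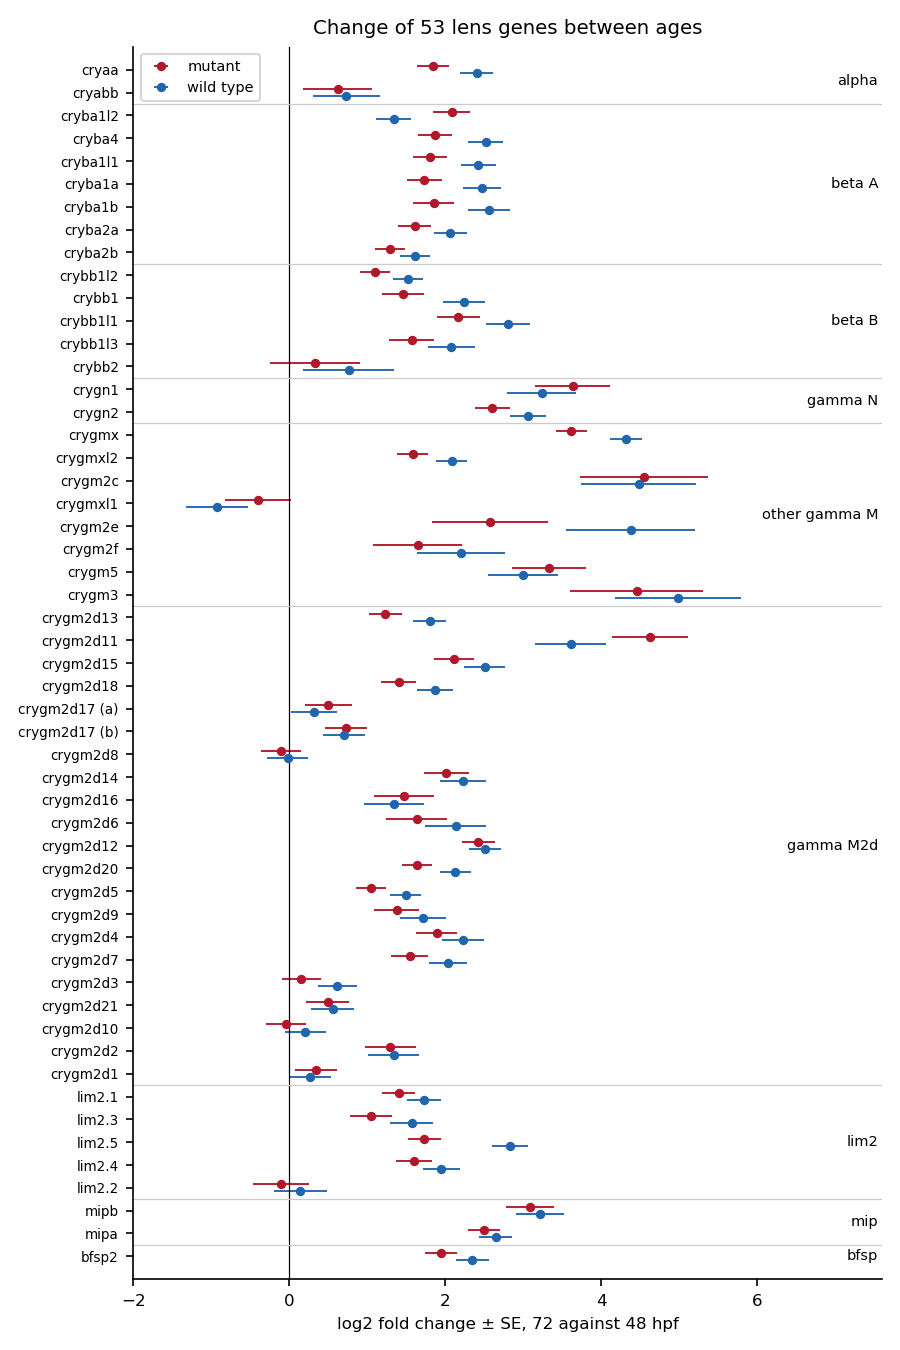
Log2 fold change ± SE of 53 lens genes, 72 against 48 hpf, in mutant (red) and wild type (blue), grouped by family; crygm2d17 (a) and (b) are the 2 rows of that symbol. Most genes lie right of 0 in both genotypes, crygmxl1 lies left of it, and crygm2d8, crygm2d10 and lim2.2 lie near it.

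At 72 hpf no lens gene passed the test between the genotypes. Of 53 tested, 0 were called in edgeR, DESeq2 or limma-voom, beside 0.555% of all genes in edgeR, and 0 had an unadjusted p under 0.05 in edgeR, beside 7.75% of all genes. The smallest adjusted p was 0.916, for crygm2d7, and fitted log2 fold changes ran between -0.55 for crygm2e and 0.28 for crygm2d7. The median was 0.03, beside 0.01 over all tested genes. For crygn2 the 1311, 1588 and 1387 CPM of mutant embryos lay above the 1299, 1199 and 1208 CPM of wild-type embryos, at a log2 fold change of 0.21 ± 0.21 (adjusted p = 0.945). Mutant and wild-type libraries did not overlap in 7 genes that were higher in mutant (bfsp2, mipa, crygn2, cryba1l2, crygm2d7 and both rows of crygm2d17) and 1 that was lower (crygmxl1), where 11% and 9.14% of all tested genes did so. Replicates agreed closely at this age, with a median coefficient of variation of the lens genes of 9.17% in mutant and 5.92% in wild-type embryos, beside 9.99% and 9.06% over all tested genes. The fit over all 4 groups also takes in the spread of the other age. In the edgeR fit of the 6 libraries at 72 hpf alone, 0 of 53 lens genes were called, beside 3.94% of all genes tested in it. At an unadjusted p under 0.05, 3 lens genes were higher in mutant and 0 lower in that fit. The unadjusted share over all genes was not counted there, and in either direction it is at least the 3.94% called.

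At 48 hpf lim2.5 and crygmx were called higher in mutant embryos and no lens gene was called lower, 2 of 53, beside 3.04% of all tested genes in either direction and 1.04% called higher. The MP20-family gene lim2.5 had 8.54, 9.99 and 5.96 CPM in mutant and 2.14, 5.40 and 3.47 CPM in wild-type embryos at 48 hpf, without overlap; at 72 hpf it had 26.9, 28.1 and 25.9 CPM and 26.7, 28.03 and 23.2 CPM. The change at 48 hpf was 2.22-fold. For crygmx the lowest mutant library, at 19.6 CPM, lay below the highest wild-type library, at 20.4 CPM, and the change was 1.74-fold. Both calls depended on the libraries in the fit. Leaving out mutant replicate 1 or mutant replicate 2 at 48 hpf left 0 lens genes called, beside 1.03% and 1.51% of all genes. Fitting the 6 libraries of that age alone also left 0 called, beside 0.381%. Fewer of all genes were thus called in each of these fits than the 3.04% above. Without mutant replicate 1, 12 lens genes rose in mutant and 1 fell at p under 0.05 before adjustment. These counts were 7 and 2 without mutant replicate 2, and 11 and 0 in the 6 libraries alone. Such counts over all genes were not made for these fits. Leaving out any 1 library at 72 hpf left lim2.5 alone, since it took away crygmx (adjusted p between 0.0558 and 0.0596). Those fits called between 2.03% and 2.32% of all genes. Of 19 alternative fits lim2.5 was called in 15 and crygmx in 8.

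Most other lens genes were fitted higher in mutant embryos at 48 hpf without passing. Log2 fold changes were positive for 44 genes and negative for 9, with a median of 0.39, beside -0.00262 over all tested genes, of which 49.5% were positive. At an unadjusted p under 0.05, 16 were higher and 1 lower, beside 7.94% and 9.41% of all tested genes. The median was 0.61 for beta A, 0.50 for beta B, 0.25 for gamma M2d, 0.13 for other gamma M, 0.07 for gamma N, 0.20 for alpha, 0.39 for lim2 and 0.20 for mip genes. Leaving out 1 library at 48 hpf turned 5 of these medians negative. Without wild-type replicate 1 they were -0.01 for gamma M2d and -0.10 for mip genes; without wild-type replicate 2, -0.29 for other gamma M; without wild-type replicate 3, -0.24 for gamma N, while gamma M2d was at 0.77. Without mutant replicate 1 the median was -0.17 for gamma N, and without mutant replicate 2 it was -0.06 for alpha. The groups overlapped in 51 of 53 genes; the exceptions, lim2.5 and cryba1a, were both higher in mutant, where 7.69% of all tested genes did not overlap in that direction and 9.08% in the other. In cryba1a, a beta A3/A1-type crystallin gene, 1.64, 1.80 and 1.58 CPM in mutant stood against 0.917, 1.17 and 0.589 CPM in wild-type embryos (log2 fold change 0.91 ± 0.27, adjusted p = 0.0856). Its family member cryba1l2 was fitted lower, with 4.80, 6.61 and 6.08 CPM against 5.01, 13.1 and 7.59 CPM (log2 fold change -0.55 ± 0.25, adjusted p = 0.257).

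**Figure D3:**
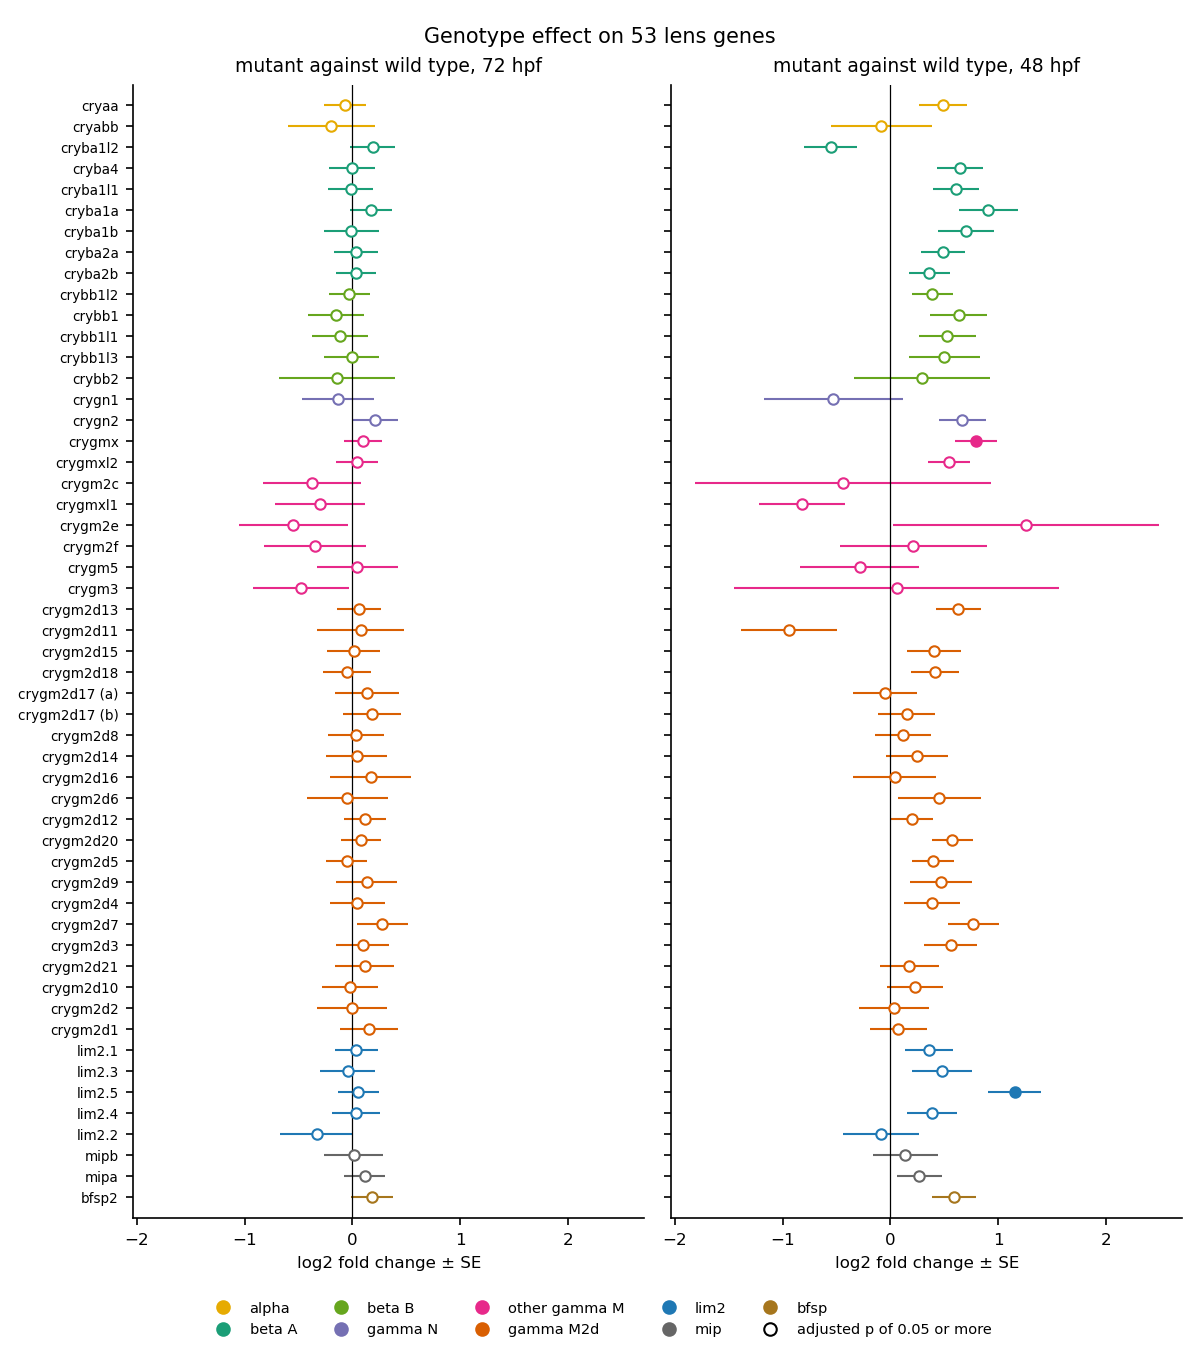
Log2 fold change ± SE of 53 lens genes, mutant against wild type, at 72 hpf (left) and 48 hpf (right), coloured by family, filled where the adjusted p is under 0.05; crygm2d17 (a) and (b) are the 2 rows of that symbol. Points gather around 0 at 72 hpf and mostly lie right of 0 at 48 hpf, where lim2.5 and crygmx are filled.

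Lens genes spread further among the wild-type libraries at 48 hpf than in any other group. Their median coefficients of variation of 22.7% in mutant and 48.4% in wild-type embryos stood beside 13.9% and 16.7% over all tested genes. Wild-type replicate 1 was the lowest of the 6 libraries at this age for 43 of 53 lens genes. These include crygm2c and crygm2e, where it tied with other libraries at 0 counts. The gene crybb1, a major beta B crystallin, had 357, 427 and 308 CPM in mutant and 142, 387 and 175 CPM in wild-type embryos at 48 hpf. Wild-type replicate 2 lay within the mutant range and the other 2 wild-type libraries below it.

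Wild-type replicates 2 and 3 stood apart in different genes. Of the 27 tested genes in the run of neighbouring gamma crystallin genes, replicate 3 was the highest of the 3 wild-type libraries for 26, at a median 2.46 times the mean of the others. Of the 26 tested genes outside the run, replicate 2 was the highest for 21, at a median 1.87 times the mean of the others, and replicate 3 for 3. Over all 21068 tested genes, replicate 2 was the highest for 34.1% and replicate 3 for 35.5%. The ratio of summed gamma M2d to summed beta crystallin counts was 2.52, 2.46 and 2.29 in mutant and 2.77, 1.67 and 4.82 in wild-type libraries at 48 hpf, and between 1.41 and 1.61 in mutant and 1.35 and 1.42 in wild-type libraries at 72 hpf. Replicate 3 was also the highest outside the crygm2d genes of the run: crygm5, named after its values were seen, had 2.97, 4.17 and 1.09 CPM in mutant and 0.978, 1.24 and 7.47 CPM in wild-type embryos at 48 hpf. The gamma M genes crygmx and crygmxl2, outside the run, were highest in replicate 2 among wild-type libraries, with 217, 239 and 158 CPM of crygmxl2 in mutant and 93.6, 180.3 and 148 CPM in wild-type embryos.

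**Figure D4:**
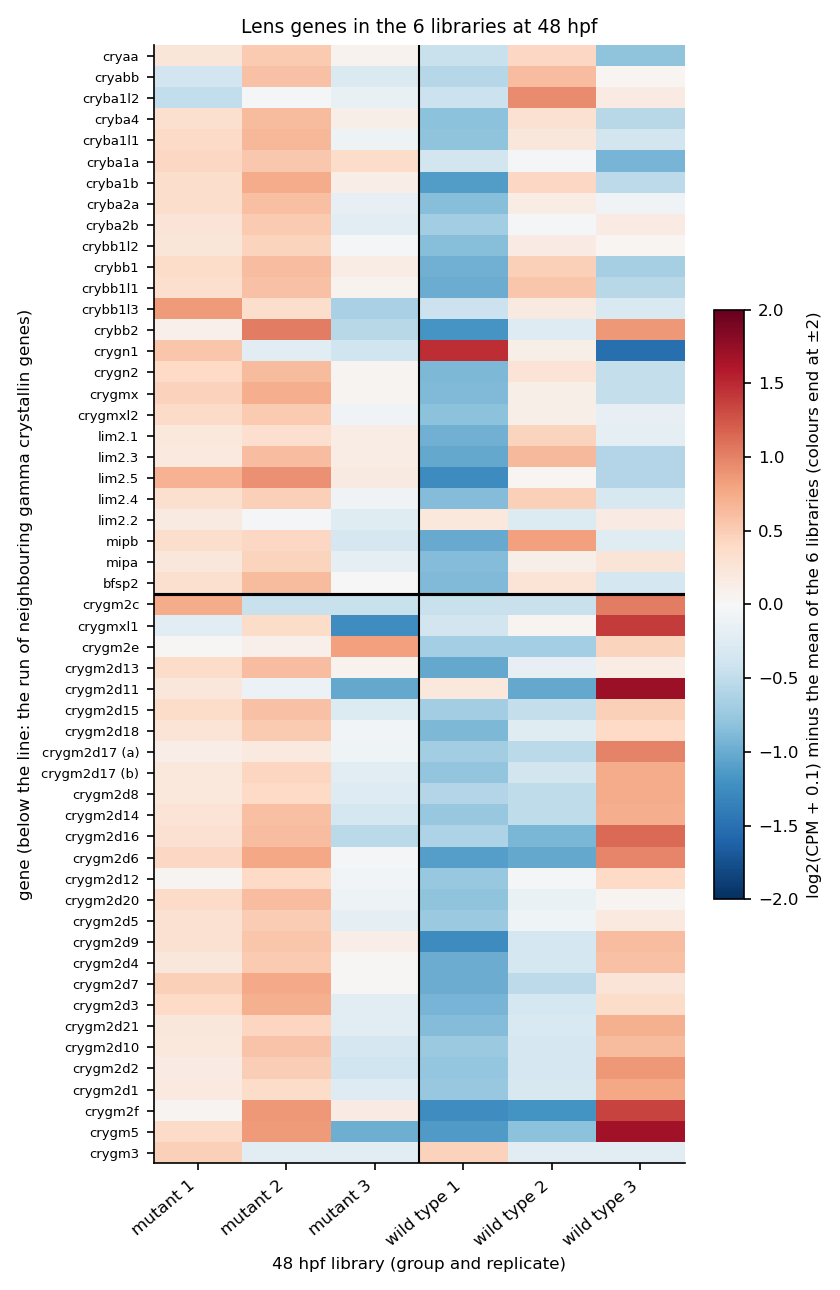
Level of 53 lens genes in the 6 libraries at 48 hpf, as log2(CPM + 0.1) minus the mean of the 6 libraries, with mutant replicates left of wild-type replicates; genes below the line belong to the run of 34 neighbouring gamma crystallin rows, in annotation order. Wild-type replicate 1 is low in most genes, replicate 2 is high mainly above the line and replicate 3 mainly below it.

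The genotype comparison at 48 hpf changed with these libraries. Without wild-type replicate 3, 18 lens genes were called higher in mutant and 0 lower, namely 17 of the 21 crygm2d rows, at log2 fold changes between 0.66 and 1.496, and lim2.5, with 5.29% of all genes called. Without wild-type replicate 2, 16 were called higher, all outside the run and at log2 fold changes between 0.76 and 1.53, and 1 lower, crygm2d11, with 4.37% of all genes called. The 16 comprised 4 beta A genes, crybb1, crybb1l1, lim2.1, lim2.3, lim2.4, lim2.5, mipb, bfsp2, cryaa, crygn2, crygmx and crygmxl2. Only lim2.5 was called in both. Without wild-type replicate 1, the sole call was cryba1l2, lower in mutant (log2 fold change -0.82, adjusted p = 0.0432), with 2.24% of all genes called. The median over the lens genes was 0.14 in that fit, beside 0.63 without replicate 3.

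**Figure D5:**
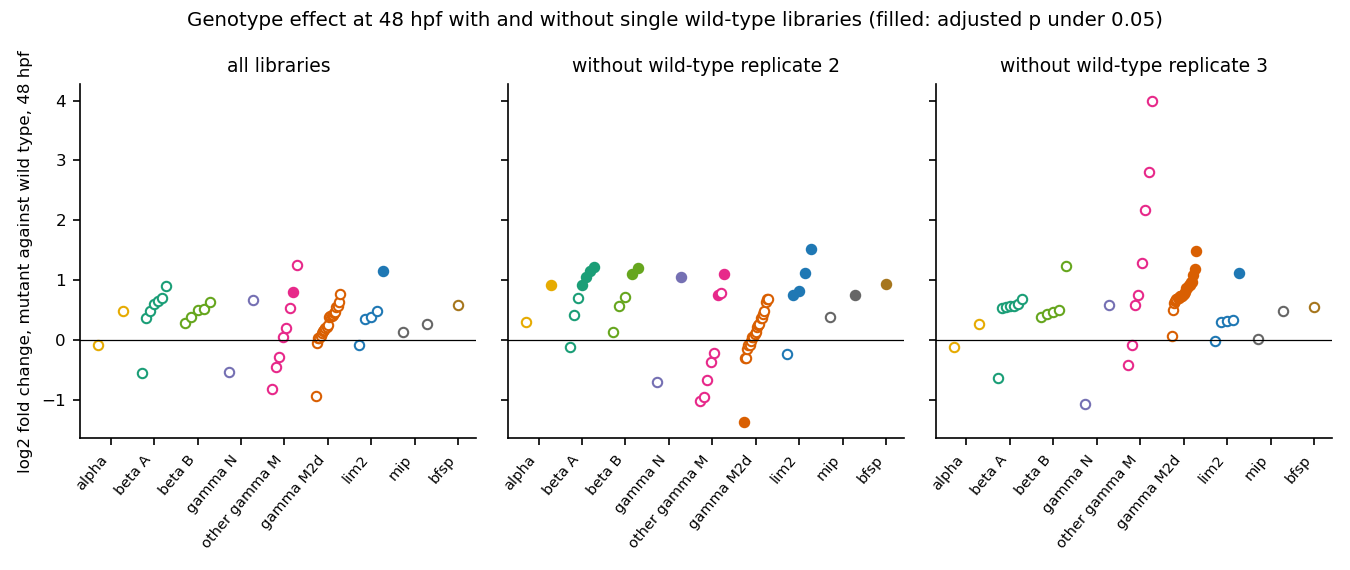
Log2 fold change of each tested lens gene at 48 hpf, mutant against wild type, by family, with all libraries (left), without wild-type replicate 2 (middle) and without wild-type replicate 3 (right); filled points have an adjusted p under 0.05. Filled points are 2 with all libraries, mostly beta and membrane genes without replicate 2, and almost all gamma M2d without replicate 3.

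The change of the genotype effect between the ages was tested directly and 0 of 53 lens genes passed, beside 0.47% of all tested genes. Unadjusted, 1 was higher and 5 lower in edgeR at p under 0.05, beside 5.79% and 4.59% of all genes, and DESeq2 and limma-voom called 0 and 0. The smallest adjusted p was that of lim2.5, at a log2 difference of -1.10 ± 0.31 (adjusted p = 0.176). The change between ages was fitted smaller in mutant than in wild-type embryos for 43 of 53 lens genes, beside 10258 of all 21068 tested genes. These changes share libraries with the comparisons of genotypes above, among them the wild-type libraries at 48 hpf that stood apart. Without wild-type replicate 2 at 48 hpf, 8 lens genes passed (cryaa, cryba4, cryba1b, crybb1, crybb1l1, crygmx, lim2.3 and lim2.5), all with a lower mutant over wild-type log2 difference at 72 than at 48 hpf, beside 1.29% of all tested genes. Without wild-type replicate 3 at 48 hpf 1 passed, crygm2d6, beside 1.23%.

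Other genes of the lens and eye were read in the same fit. Of 28 transcription and RNA-binding factors known for lens formation, 0 rose and 1 fell in mutant embryos at 48 hpf: mafbb, a Maf-family transcription factor gene, had 58.1, 50.2 and 45.4 CPM in mutant and 73.3, 75.6 and 65.2 CPM in wild-type embryos (log2 fold change -0.48 ± 0.12, adjusted p = 0.0464). The call was lost under either other library scaling, in the fit of the 6 libraries alone and in most fits without 1 library. Of 32 other genes of lens cells, such as those for junction and cytoskeletal proteins, 0 passed; the smallest p was that of chmp4ba, a membrane remodelling gene of the ESCRT machinery (-0.37 ± 0.11, adjusted p = 0.0789). At 72 hpf 0 genes of both lists passed, and rbm24a, an RNA-binding protein gene, and tmod4, a tropomodulin gene, had the smallest p (adjusted p = 0.187 and 0.248). At an unadjusted p under 0.05 the factor list had 2 higher and 2 lower at 48 hpf and 1 higher and 0 lower at 72 hpf, and the other lens list 6 higher and 2 lower, and 1 higher and 1 lower. Over all tested genes these shares were 7.94% higher and 9.41% lower at 48 hpf and 7.75% in either direction at 72 hpf, and 3.04% were called at 48 hpf. Small heat shock genes, relatives of the alpha crystallins, had 0 of 8 called at either age, with hspb15 closest at 48 hpf (0.506, 0.216 and 0.912 CPM in mutant against 2.02, 0.975 and 1.59 CPM in wild type, log2 fold change -1.44 ± 0.39, adjusted p = 0.0563). Unadjusted, edgeR had 1 higher and 2 lower at p under 0.05 at 48 hpf, against the same shares. DESeq2 called 1 lower at 48 hpf, where it called 3.7% of all genes in either direction.

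Markers of other eye cells were summed per library beside the lens genes. At 48 hpf the summed CPM of 32 other lens cell genes lay between 1266 and 1299 in mutant and 1094 and 1307 in wild-type embryos, and that of the photoreceptor genes between 311 and 365 in mutant and 271 and 360 in wild-type embryos. Both overlapped between the genotypes. At 72 hpf the photoreceptor sum lay between 12603 and 13335 CPM in mutant and 9226 and 11012 CPM in wild-type embryos, without overlap, while the summed share of the lens genes overlapped. The part of these cells in the lens values was not tested.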

How the data were processed

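Raw gene counts of 12 libraries were deposited by the authors as 1 table, with Ensembl identifiers and gene symbols. Named in the submitters' processing notes, without versions or roles, are the build GRCz11 and the tools STAR, featureCounts and DESeq2; strandedness, annotation release and the handling of reads that map to several genes were not stated. Genes were filtered with filterByExpr (minimum count 10), scaled by TMM and tested with edgeR 4.0.16 (quasi-likelihood test, R 4.3.3) over all 4 groups of 3 libraries, with Benjamini-Hochberg adjustment over all tested genes and a threshold of 0.05. CPM values use TMM-scaled library sizes, carry no gene length and are not compared as amounts between genes. The code was tested on simulated data. Ratios of low counts carry exact 95% intervals for counting error only, and those against a floor of 3 counts carry no interval. Alternatives were DESeq2 1.42.0, limma-voom (limma 3.58.1), other scalings, no filter, the 6 libraries of a comparison alone, a replicate block and leaving out each library. Same-numbered libraries did not deviate together.

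The lens genes and the other gene lists were chosen with earlier results of these data known. Genes were named by rule: those called between genotypes, and in each family the highest in mean CPM and those of smallest p at 48 and at 72 hpf, with the extremes of the wild-type change between ages; in the other lists up to 4 called genes, or the one of smallest p. Other lens genes named were chosen after their values were seen. No sequences are shown.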

Additional observations from a re-analysis of the deposited data

How the results depend on the processing

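At 48 hpf the count of lens genes called between the genotypes was 2 of 53 in the fit reported, beside 3.04% of all tested genes. Without the filter on low counts it was 4 of 63 (3.09% of all genes). In the fit of the 6 libraries of that age it was 0 of 47 (0.381%). On leaving out 1 library it was between 0 and 18 of 53 (between 1.03% and 5.29%). DESeq2 called 3 of 63 (3.7%) and limma-voom 2 of 53 (2.83%). Both other scalings called 2 of 53 (2.95% with the size factors of DESeq2, 3.51% with library totals alone). At 72 hpf the count was 0 in all alternatives, beside between 0.112% and 3.94% of all genes. The test of the difference between ages gave between 0 and 8 on leaving out 1 library (between 0.107% and 1.29%) and 0 otherwise. The median log2 fold change at 48 hpf ranged between 0.14 and 0.63. Library totals alone as scaling moved the median rise between ages to 1.93 in mutant and 2.51 in wild-type embryos, where the median of all tested genes moved to 0.32 and 0.41. As percent of TMM-scaled library size the lens share at 72 hpf was 2.77% in mutant and 2.69% in wild-type libraries, and as percent of library totals without crybb1l2, the gene with the most counts, 2.92% and 2.85%. Counting only values of lens genes named by rule, and called in the fit reported or in the alternative, 1 changed sign. This was the wild-type change of crygm2d8 between ages, 0.55 without wild-type replicate 3 at 48 hpf and between -0.25 and 0.55 over all fits without 1 library. A row of crygm2d17, not named by rule, was at -0.05 between genotypes at 48 hpf in the fit reported. Without wild-type replicate 3 at 48 hpf it was called higher in mutant, at 0.71. The cause of these changes was not tested. Values of lens genes named by rule and not called in the fit reported changed sign in 15 of 322 cases between genotypes at 48 hpf and 12 of 361 at 72 hpf. None of these was called in the alternative. The count of lens genes called between ages ranged between 41 and 46 in mutant and 42 and 50 in wild-type embryos over all alternatives. The share of all genes called ranged between 53.3% and 72.3% in mutant and 54.4% and 71.8% in wild-type embryos.

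Replicate numbers are shared between groups in the labels, but same-numbered mutant and wild-type libraries correlated at only -0.0094, -0.0909 and -0.155 in their deviations from group means at 48 hpf and at -0.0238, 0.0233 and -0.0045 at 72 hpf. With the replicate number as a block, 2 lens genes were called at 48 hpf, 0 at 72 hpf and 0 in the test of the difference. Between ages 43 were called in mutant and 44 in wild-type embryos. Of all tested genes, that fit called 2.08%, 0.351%, 0.28%, 68.9% and 69.8% in the same order. The 3 libraries a group, the spread of the wild-type libraries at 48 hpf and any reads shared among gamma M2d genes limit these values. A level of 3 counts corresponded to between 0.151 and 0.216 CPM.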

Other observations

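Photoreceptor genes of the neighbouring retina were read in the same fit. At 72 hpf 0 of 46 were called by edgeR between mutant and wild-type embryos, beside 0.555% of all tested genes. Without adjustment 12 were higher and 0 lower at p under 0.05 in edgeR, beside 7.75% of all tested genes in either direction. DESeq2 called 6 higher, beside 0.9% of all genes, and limma-voom 2, beside 0.926%. Their log2 fold change was positive for 41 of 46, with a median of 0.25, beside 0.01 over all tested genes. The cone opsin gene opn1mw2 had 31.5, 26.2 and 32.1 CPM in mutant and 20.5, 14.4 and 16.4 CPM in wild-type embryos, without overlap (log2 fold change 0.80 ± 0.18, edgeR adjusted p = 0.0632). At 48 hpf grk1b, a rhodopsin kinase family gene, was called higher, with 0.695, 0.287 and 0.486 CPM in mutant and 0.0611, 0.0650 and 0.118 CPM in wild-type embryos; its wild-type values lay below the level of 3 counts, and the call was lost in limma-voom and without mutant replicate 1 or wild-type replicate 1 at 48 hpf.

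Of 17 surface epithelium genes 1 was called at 72 hpf, against 0.555% of all tested genes, the keratin gene krt97, with 86.0, 94.6 and 76.3 CPM in mutant and 132, 148 and 128 CPM in wild-type embryos (log2 fold change -0.67 ± 0.11, edgeR adjusted p = 0.00820). Without mutant replicate 3 or wild-type replicate 2 at 72 hpf 0 of the 17 were called. Among 20 genes of retinal neurons and progenitors and 12 of the pigment epithelium 0 were called at either age by edgeR; at an unadjusted p under 0.05 there were 3 higher and 2 lower, and 0 higher and 3 lower, at 48 hpf, and 0 in both lists at 72 hpf, beside 7.94% higher and 9.41% lower over all tested genes at 48 hpf and 7.75% in either direction at 72 hpf. Between ages, 45 of the 46 photoreceptor genes rose and 0 fell in wild-type embryos, while the 32 other lens cell genes split into 13 that rose and 13 that fell; of all tested genes 35.4% rose and 35.4% fell.

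Low counts left some lens genes out of the tests. Over the 3 libraries of a group, crygs3 had 8 counts in mutant and 9 in wild-type embryos at 72 hpf and 0 in both at 48 hpf, and crygm7 had 3 and 11 at 72 hpf and 0 in both at 48 hpf. Against a floor of 3 counts over the group the ratios of crygs3 were 2.21 in mutant and 2.60 in wild-type embryos, and that of crygm7 was 3.17 in wild type. These ratios leave out counting error at 72 hpf. By contrast crybb3 had 11 and 14 counts at 72 hpf and 11 and 12 at 48 hpf.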
